A study of Mus musculus with 13 samples.

Results

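A set of 401 open regions was examined that were strong in proximal forelimb (PFL) and in forebrain (FB) but not in distal forelimb (DFL) of mouse embryos at E12.5. In each of 12 ATAC-seq libraries the 50000 strongest called regions on chromosomes 1 to 19 were kept, with chromosome 2 used only below 75 Mb. The kept regions were merged over libraries into 112414 regions. Members were the 401 merged regions kept in at least 3 of 4 PFL libraries, in at least 3 of 4 FB libraries and in no DFL library. Members were thus chosen by the strength of the deposited calls, so the presence of members in PFL and FB and their weakness in DFL are descriptions and were not tested.

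ATAC-seq marks open chromatin through the insertion of sequencing adapters by the Tn5 transposase. Libraries of 50000 cells were prepared from DFL, PFL and FB of wild-type (wt) embryos and of embryos homozygous for allele 542, all on a B6CBAF1 background, with 2 replicates for each of the 6 groups, each made from a separate pool of embryos. Allele 542 comes from a single founder line. It carries 1 copy of a transgene in T-DOM, the regulatory domain on the telomeric side of the HoxD cluster, in which the distal limb enhancer II1 precedes the HBB promoter and LacZ. A further wt DFL library, an earlier sample that was reprocessed, took no part in the choice of members and is given separately. Reads of wt libraries were mapped to mm10 and those of 542 libraries to a genome holding the insertion, so that genotype and mapping genome cannot be told apart.

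Enhancers and promoters are bound by transcription factors that keep nucleosomes away, and a developmental gene often has separate enhancers for separate organs. Proximal limb cells, the source of the upper arm and forearm, express MEIS proteins of the TALE homeodomain family, whereas distal cells of the future digits express HOX13 proteins. MEIS proteins are also made in parts of the developing brain, and bHLH proteins, which bind E-boxes, act in both nerve and muscle lineages.

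The sequences of 6 members are shown first because these members have the highest mean fold over the 8 PFL and FB libraries and hold motifs that were counted in all members. Each is 300 bases of GRCm38 (mm10), plus strand, around the mean summit. Capitals mark TGACAG, a site of TALE proteins, and the E-boxes CAGCTG and CAGATG, on either strand. In order they lie at chr13:26119407-26119706, chr12:28817429-28817728, chr3:144623270-144623569, chr13:16705790-16706089, chr1:165075749-165076048 and chr14:28958673-28958972.
near Hdgfl1: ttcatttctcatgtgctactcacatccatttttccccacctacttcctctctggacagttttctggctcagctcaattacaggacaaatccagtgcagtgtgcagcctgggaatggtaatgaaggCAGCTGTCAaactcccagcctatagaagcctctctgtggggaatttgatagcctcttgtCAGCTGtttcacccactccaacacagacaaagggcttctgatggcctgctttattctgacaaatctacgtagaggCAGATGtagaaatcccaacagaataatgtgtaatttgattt
Eipr1 intron: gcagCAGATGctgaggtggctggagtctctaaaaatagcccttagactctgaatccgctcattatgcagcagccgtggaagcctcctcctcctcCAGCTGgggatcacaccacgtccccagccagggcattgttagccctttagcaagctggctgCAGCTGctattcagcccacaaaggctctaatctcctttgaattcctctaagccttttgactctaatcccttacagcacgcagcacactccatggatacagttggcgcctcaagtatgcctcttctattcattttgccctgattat
near Selenof: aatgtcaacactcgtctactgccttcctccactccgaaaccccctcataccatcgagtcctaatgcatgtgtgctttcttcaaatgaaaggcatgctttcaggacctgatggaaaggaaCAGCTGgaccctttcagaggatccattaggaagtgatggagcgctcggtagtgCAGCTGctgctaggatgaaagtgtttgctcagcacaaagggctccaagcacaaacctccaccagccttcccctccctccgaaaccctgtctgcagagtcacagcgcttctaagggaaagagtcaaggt
near Inhba: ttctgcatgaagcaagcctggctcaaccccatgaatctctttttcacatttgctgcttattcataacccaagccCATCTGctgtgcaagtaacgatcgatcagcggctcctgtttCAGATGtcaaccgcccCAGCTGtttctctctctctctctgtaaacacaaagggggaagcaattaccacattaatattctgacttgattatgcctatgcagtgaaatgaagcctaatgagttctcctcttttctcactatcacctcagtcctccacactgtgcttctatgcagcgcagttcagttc
near Tbx19: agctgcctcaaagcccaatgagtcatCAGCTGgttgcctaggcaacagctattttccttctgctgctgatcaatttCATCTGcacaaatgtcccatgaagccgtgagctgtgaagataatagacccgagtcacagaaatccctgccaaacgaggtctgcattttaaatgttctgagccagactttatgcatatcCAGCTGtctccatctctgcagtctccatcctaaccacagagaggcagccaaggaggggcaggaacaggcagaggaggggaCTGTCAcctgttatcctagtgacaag
Cacna2d3 intron: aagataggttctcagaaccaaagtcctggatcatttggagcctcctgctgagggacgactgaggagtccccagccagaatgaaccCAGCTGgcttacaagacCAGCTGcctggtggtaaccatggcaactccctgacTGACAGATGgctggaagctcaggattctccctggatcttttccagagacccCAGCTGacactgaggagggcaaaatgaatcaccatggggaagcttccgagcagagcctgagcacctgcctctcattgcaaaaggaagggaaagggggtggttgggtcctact
Each of the 6 holds at least 1 CAGCTG, and 3 of them hold TGACAG. In the region near Hdgfl1 the first capital run is a TGACAG that shares 3 bases with a CAGCTG, read on the minus strand.

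Depth and labels were examined before the members. The 12 libraries held 37.5 to 70.7 M tags, as estimated from the background of the peak caller, and 85104 to 118339 regions. The weakest kept region had a −log10 q of 6.53 in 542 PFL replicate 2, the library with fewest tags, and of 14.6 in wt FB replicate 1, the library with most. A kept region over the start of Hoxd13, a gene of the digit territory, was found in 4 of 4 DFL, 3 of 4 PFL and 0 of 4 FB libraries. One over the start of Six3, a gene of the anterior neural plate, was found in 4 of 4 FB libraries and in no limb library. Regions nearest to a list of distal limb genes numbered 109 to 119 in DFL, 82 to 91 in PFL and 85 to 90 in FB, and regions nearest to forebrain progenitor genes numbered 151 to 163 in FB and 59 to 70 in the limb. A list of proximal limb genes did not set PFL apart, with 111 to 122 regions in PFL, 102 to 115 in DFL and 102 to 114 in FB. For bulk tissue, fewer cells with an open region and less opening per cell cannot be told apart.

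By library, the members kept among the 50000 strongest regions were 355 and 349 of 401 in wt PFL, 346 and 321 in 542 PFL, 388 and 375 in wt FB, and 367 and 375 in 542 FB. Of all members 131 were kept in 4 of 4 libraries of both tissues, 171 in 3 PFL and 4 FB libraries, 37 in 4 PFL and 3 FB libraries, and 62 in 3 of each. PFL was thus the tissue in which members were more often missed, and 542 PFL replicate 2 lacked the most, 80. Strength is given as fold, the ratio of tags at the strongest summit to the local background of the same library. The median fold of members was 5.31 and 5.28 in wt PFL, 5.44 and 4.94 in 542 PFL, 7.23 and 6.77 in wt FB, and 6.33 and 6.75 in 542 FB. Members stood at a median rank of 36962 to 38616 in PFL libraries and of 29082 to 30706 in FB libraries, in the lower part of the kept lists.

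**Figure D1:**
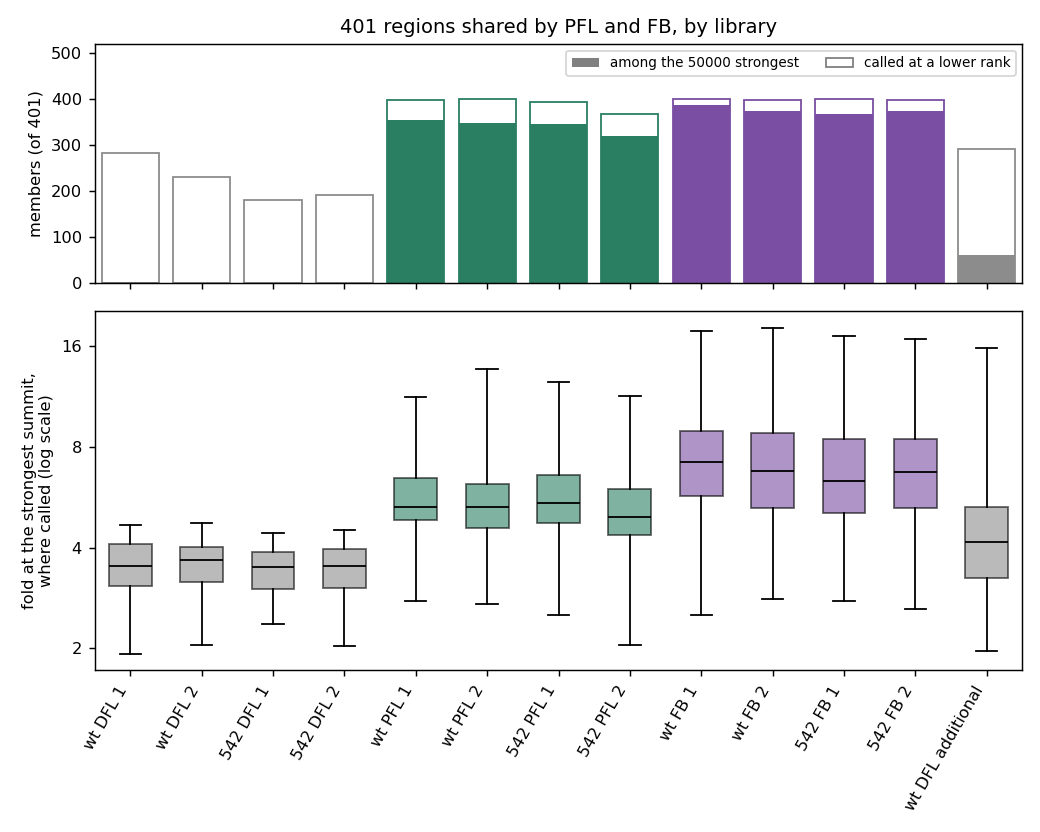
Members by library. Upper panel, number of the 401 members among the 50000 strongest regions (filled) or called at a lower rank (open); lower panel, fold at the strongest summit on a log scale where a member was called (box, quartiles with median; whiskers, lowest and highest value). Median fold was 3.50 to 3.68 in the 4 DFL libraries, 4.94 to 5.44 in PFL and 6.33 to 7.23 in FB.

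Most members had a weaker call in distal limb cells. A call of lower rank was found for 283 and 232 members in wt DFL and for 180 and 191 in 542 DFL, with a median fold of 3.52 and 3.68 in wt and of 3.50 and 3.52 in 542. No DFL library had a call at 60 members, 1 library at 58, 2 at 99, 3 at 106 and 4 at 78. The 60 members with no call make up 15.0% of members, beside 28.4% of the 4059 regions kept in PFL only and 69.9% of the 13242 regions kept in FB only. The wt DFL libraries, with more calls at members, were deeper than those of 542 (54.5 and 44.0 M tags against 41.4 and 40.2 M), and the part of depth in this was not tested.

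The members closest to the limit by presence, near Sppl2c, Rgs2 and Scn3a, stood at ranks 49987, 49972 and 49927 in the library that decided. The best DFL ranks among members included 50046 near Cdh20 and 50051 near Insig2. Just outside lay regions near Car7, Msc and Tead1, each kept in 1 DFL library at ranks 49963, 49956 and 49948. The mean fold of the region near Cdh20 was 8.49 in PFL, 8.53 in FB and 3.65 in DFL, and that of the region near Tead1 was 6.10, 11.2 and 3.71. Of the 23803 merged regions kept in at least 3 PFL and 3 FB libraries, 20439 were kept in all 4 DFL libraries, 1666 in 3, 813 in 2 and 484 in 1.

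The further wt DFL library served as a check that the rule had not used. It was deeper than all others, with 78.0 M tags, and its weakest kept region had a −log10 q of 24.5. Of the 401 members 61 were among its 50000 strongest regions (15.2%, 95% exact binomial interval 11.8 to 19.1), beside 41.7% of all merged regions. At any strength it had a call at 291 members (72.6%, interval 67.9 to 76.9), beside 69.4% of all merged regions, with a median fold of 4.17. The share among its strongest regions was 12.9% for regions kept in PFL only, 1.82% for regions kept in FB only and 62.7% for the 911 regions kept in DFL and FB but not in PFL. At the 60 members without a call in the other DFL libraries, this library had a call at 21, of which 4 were among its strongest. Intervals over regions cover counting error only.

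The members with the highest mean fold over the 8 PFL and FB libraries are described one by one. First was an intergenic region of 888 bp on chromosome 13 (26118967 to 26119854), 650608 bp from the nearest coding start, that of Hdgfl1. Its fold was 7.40 and 7.39 in wt PFL, 8.71 and 6.19 in 542 PFL, 17.8 and 18.2 in wt FB, and 17.2 and 16.8 in 542 FB, and no DFL library, the further one included, had a call there. The FB values were all above the PFL values. The genotypes overlapped in PFL, while in FB both wt values were above both 542 values.

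An intron of Eipr1, a gene of vesicle traffic, held the next (chromosome 12, 28817022 to 28818289), with a fold of 6.60 and 8.26 in wt PFL, 8.91 and 3.99 in 542 PFL, 17.4 and 14.9 in wt FB, and 16.5 and 16.2 in 542 FB. Next came an intergenic site 45768 bp from Selenof (chromosome 3, 144622897 to 144623833), which had the highest mean PFL fold of all members, with 10.4 and 13.7 in wt and values between these in 542, and FB values of 10.9 and 12.4 in wt and 11.0 and 8.00 in 542. Its only DFL call among the 4 libraries was in wt replicate 2, at 2.63. PFL and FB values of this region overlapped.

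An intergenic region 691465 bp from Inhba, which encodes the beta A subunit of activin, followed on chromosome 13 (16705581 to 16706545). It had a fold of 7.01 and 5.88 in wt PFL, 5.04 and 6.19 in 542 PFL, 14.7 and 14.4 in wt FB and 14.5 and 14.8 in 542 FB, while its DFL calls ranged from 2.59 to 3.68 in all 4 libraries. The region near Tbx19, a T-box gene (chromosome 1, 165075247 to 165076321), reached 9.20 and 9.20 in wt PFL, 9.14 and 6.32 in 542 PFL, 12.9 and 12.0 in wt FB, and 11.9 and 10.0 in 542 FB. The lowest PFL value came from 542 replicate 2, and no PFL value reached the lowest FB value. An intron of Cacna2d3, a calcium channel subunit gene (chromosome 14, 28958269 to 28959388), had 6.18, 6.03, 5.94 and 4.99 in PFL and 15.8, 13.5, 13.6 and 13.8 in FB, wt first in each.

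The other 4 of the strongest 10 lay at the Plpp7 promoter and near Dclk1, Basp1 and Wac. At Plpp7 (chromosome 2, 32095316 to 32096047) PFL values were 8.53 and 8.29 in wt and 8.12 and 6.19 in 542, and FB values were 14.7 and 8.09 in wt and 13.5 and 12.2 in 542, so that wt FB replicate 2 fell among the PFL values. Near Dclk1, which encodes a microtubule-associated kinase of young neurons (chromosome 3, 55226410 to 55227425), and near Basp1, a gene of the growing axon (chromosome 15, 25019064 to 25020117), the tissues overlapped, with means of 8.65 ± 1.38 and 9.29 ± 0.916 in PFL and of 11.2 ± 1.56 and 10.3 ± 1.65 in FB (SD, n = 4). The region near Wac (chromosome 18, 8453142 to 8453913) had 7.30 ± 1.47 in PFL and 12.0 ± 1.51 in FB (SD, n = 4) without overlap among the 8 libraries, and the further DFL library had a fold of 8.46 there.

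**Figure D2:**
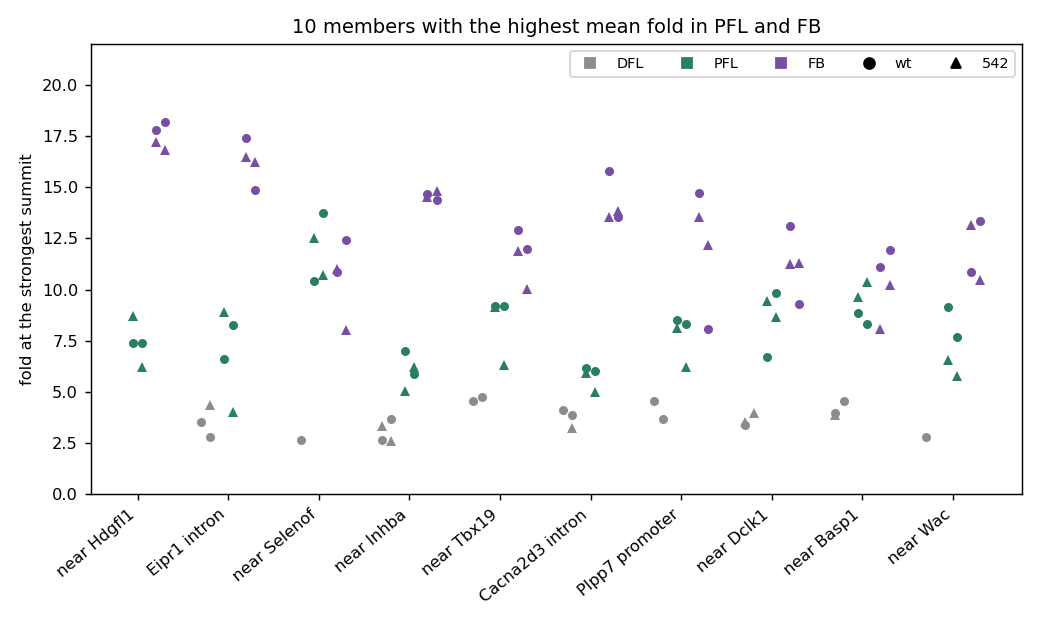
Fold at the strongest summit of the 10 members with the highest mean fold over PFL and FB, one point per library in which a call was made (colour, tissue; circle, wt; triangle, 542). DFL points stay between 2.59 and 4.73, below every PFL and FB point except 542 PFL replicate 2 at Eipr1, and near Hdgfl1 no DFL point is drawn because there was no call. The further DFL library is not drawn.

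Whether a member was more open in PFL or in FB was tested on log2 fold with the library median set to 0, with limma over all 23803 regions kept in at least 3 libraries of both tissues and Benjamini-Hochberg adjustment over them. The rule does not compare PFL with FB, but it removes regions kept in DFL. Among merged regions 8332 were kept in DFL and PFL without FB, and 911 in DFL and FB without PFL. The choice can thus bear on the balance between PFL and FB, and how far it did was not tested. Of the 401 members 48 (12.0%) were higher in PFL and 106 (26.4%) were higher in FB. Over all regions tested, of which 20439 were kept in all 4 DFL libraries, 20.0% were higher in PFL and 12.2% in FB. The median difference, PFL minus FB, was −0.07 for members and 0.06 for all regions, on the log2 scale. A value was at hand in all 8 libraries for 350 members, and the other 51 were fitted on those they had. Depth went largely with tissue, at 51.4 to 70.7 M tags in FB and 37.5 to 52.7 M in PFL. The part of depth in the fold values and missing calls of this comparison was not tested. The balance of calls depended on the scale, for members and for all regions. Without setting the library median to 0, 12 members (2.99%) were higher in PFL and 166 (41.4%) in FB, beside 5.93% and 36.5% of all regions. As summit tags divided by depth (depth-scaled summit tags) the counts were 28 (6.98%) and 161 (40.1%), beside 11.5% and 37.6%. The median of all regions was −0.17 without centring and −0.22 by depth-scaled summit tags, so that all regions leaned to FB on these scales. By quantile normalization 27 members (6.73%) were higher in PFL and 111 (27.7%) in FB, beside 13.9% and 14.2% of all regions, and as ranks 19 (4.74%) and 123 (30.7%), beside 15.8% and 17.9%. Leaving out wt FB replicate 1, wt FB replicate 2 or 542 FB replicate 1 gave 27, 29 or 30 members higher in PFL. In simulated data for this comparison, 46% of shifts of 0.5 and 88% of shifts of 1 on the log2 scale were called. There, 100 of 23803 regions were shifted by each amount and no value was missing. Far more regions were called in the real data, so these rates need not hold for them.

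Of the strongest 10 members 5 were higher in FB and 1 was higher in PFL, beside 26.4% and 12.0% of all members. These 10 were ranked by mean fold over both tissues. Over members the fold was larger and more spread in FB (7.22 ± 2.32) than in PFL (5.51 ± 1.13, mean and SD over members). The ranking thus favours regions with a high FB fold, and the balance among the 10 is a description. The differences near Hdgfl1 (−1.01 ± 0.09, log2, SE; limma adjusted p = 3.02e-05), in Eipr1 (−1.05 ± 0.18, limma adjusted p = 0.00124), near Inhba (−1.05 ± 0.12, limma adjusted p = 8.62e-05), in Cacna2d3 (−1.06 ± 0.10, limma adjusted p = 4.01e-05) and near Wac (−0.49 ± 0.13, limma adjusted p = 0.0122) were called. The call near Wac was lost without wt FB replicate 2 or 542 FB replicate 1 (limma adjusted p = 0.0629 and 0.0604). Near Selenof PFL was higher (0.41 ± 0.13, limma adjusted p = 0.0333), but not without centring (limma adjusted p = 0.308), by quantile normalization (limma adjusted p = 0.0521) or without 542 FB replicate 2, wt FB replicate 1, wt PFL replicate 2 or either 542 PFL library (limma adjusted p from 0.055 to 0.138). Those near Tbx19 (−0.25 ± 0.12), at Plpp7 (−0.38 ± 0.16), near Dclk1 (−0.15 ± 0.14) and near Basp1 (0.09 ± 0.11) were not called, with limma adjusted p from 0.0802 to 0.544. The region near Tbx19 was called higher in FB without centring (limma adjusted p = 0.0138), by depth-scaled summit tags (limma adjusted p = 3.99e-06), also with their library median set to 0 (limma adjusted p = 0.000549), by rank (limma adjusted p = 0.0189) and without 542 PFL replicate 1 (limma adjusted p = 0.0336). That at Plpp7 was called without centring (limma adjusted p = 0.0183), by depth-scaled summit tags (limma adjusted p = 0.00782), with the replicate block (limma adjusted p = 0.0484) and without wt FB replicate 2, where the difference was −0.58 (limma adjusted p = 0.00718).

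Of the 5 largest differences among members higher in FB, 3 lay in introns. In Foxn3, a forkhead gene (chromosome 12, 99339718 to 99340569), the fold was 4.60 and 3.17 in wt PFL, 4.49 and 3.84 in 542 PFL, 15.0 and 14.8 in wt FB and 14.7 and 15.0 in 542 FB. The difference was −1.67 ± 0.14 (log2, SE; limma adjusted p = 1.39e-05), and the FB values spread far less than the PFL values. In E130114P18Rik (chromosome 4, 97648805 to 97649667) PFL values of 3.71 to 4.30 stood against FB values of 12.6 to 15.3, a difference of −1.60 ± 0.12 (limma adjusted p = 1.07e-05). The region near Zfp516 (chromosome 18, 83523361 to 83524566), a zinc finger gene, had 3.05 to 4.94 in PFL and 11.8 to 14.1 in FB (−1.49 ± 0.13, limma adjusted p = 2.42e-05). In Cacna1g, which encodes a low-voltage calcium channel (chromosome 11, 94468433 to 94469355), the values were 2.99 to 4.03 and 9.82 to 10.9 (−1.32 ± 0.13, limma adjusted p = 4.22e-05). The fifth, near Ssbp3, a partner of LIM homeodomain complexes (chromosome 4, 106866749 to 106867393), had 2.48 to 4.66 and 9.25 to 11.7 (−1.23 ± 0.19, limma adjusted p = 0.000538). Near Ssbp3 the difference was −0.587 by depth-scaled summit tags and −0.355 with their library median set to 0, where it was not called (limma adjusted p = 0.0854). In all 5 the PFL and FB values did not overlap, and each was in 3 rather than 4 of the PFL lists. DFL calls, where made, were close to the PFL values. They were 2.19 and 2.87 in Foxn3, 2.77 and 3.42 in E130114P18Rik and 2.12 and 2.72 in Cacna1g. Near Zfp516 (2.62 and 3.58) and Ssbp3 (1.92 to 3.42) DFL and PFL values overlapped.

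Among members higher in PFL the differences were smaller. The region near Pcdh7, a protocadherin gene (chromosome 5, 58173947 to 58174746), had a fold of 7.85 and 10.2 in wt PFL, 6.93 and 9.17 in 542 PFL, 4.44 and 4.68 in wt FB and 5.19 and 5.54 in 542 FB. The difference was 1.01 ± 0.16 (log2, SE; limma adjusted p = 0.000808). Near Neurod4, a proneural bHLH gene (chromosome 10, 130259385 to 130259956), values of 6.27 to 11.1 in PFL met 4.77 to 6.07 in FB (0.82 ± 0.13, limma adjusted p = 0.000729), and no DFL library had a call. The region near Ice1 (chromosome 13, 70685044 to 70685693) had 5.67 to 8.78 in PFL and 3.97 to 5.23 in FB (0.81 ± 0.15, limma adjusted p = 0.00194), also with no DFL call.

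The other 2 of the 5 largest reversed when another scale was used. In Brinp1, a neural gene (chromosome 4, 68765632 to 68766566), the fold was 5.41 to 6.78 in PFL and 3.12 to 4.90 in FB (0.95 ± 0.15, limma adjusted p = 0.000866), but depth-scaled summit tags gave −0.26. The region near Usp25, within the noncoding gene Mir99ahg (chromosome 16, 77238451 to 77239218), had folds of 5.14, 4.43 and 5.04 in the 3 PFL libraries with a call and of 2.80 to 3.05 in FB (0.95 ± 0.12, limma adjusted p = 0.00022). Its summits held 36 to 56 tags in PFL and 169 to 223 in FB, and the difference was −1.70 by depth-scaled summit tags and −0.21 by rank.

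**Figure D3:**
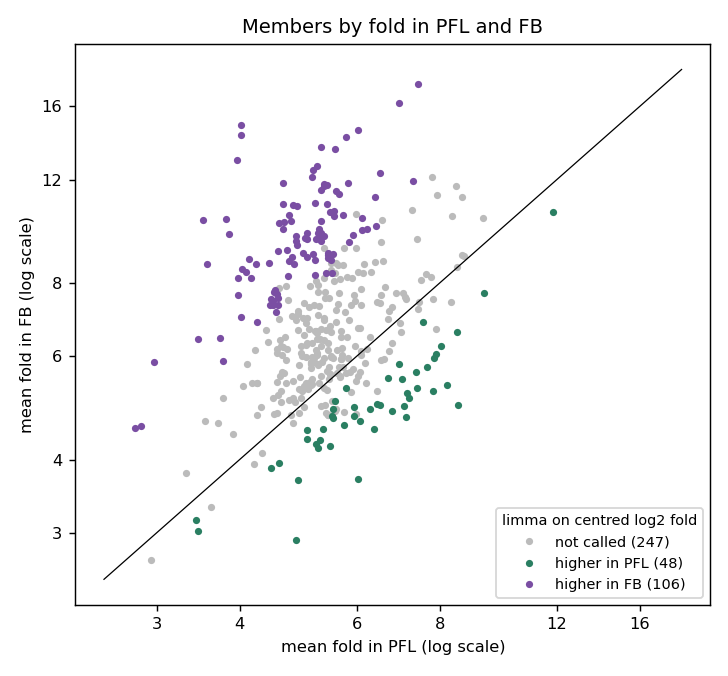
Mean fold of each member over the 4 PFL libraries (x axis) and over the 4 FB libraries (y axis), both on log scales, with the line of equal fold. Of the 401 members 106 were called higher in FB and 48 higher in PFL on centred log2 fold, and 247 were not called.

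Allele 542 and wt were compared in the same model, to ask whether members vary with the genotype. By limma 0 of 401 members passed at an adjusted p under 0.05, beside 0.147% of all regions. At an unadjusted p under 0.05 there were 29 members higher and 26 lower in 542, while the background was 8.24% higher and 4.18% lower. The lowest adjusted p of a member was 0.129 in limma, and estimates ran from −0.77 to 0.91 (log2). The median was 0.04 for members within PFL and −0.0025 within FB. The difference between the genotype effects of PFL and FB was not called for any member by limma, where 0.0% of all regions were called, and 36 members had an unadjusted p under 0.05 beside 7.68% of all regions. By depth-scaled summit tags 4 members differed between genotypes, beside 0.898% of all regions. With the library median of these set to 0 it was 3, beside 1.78%, and by rank 2, beside 1.84%. Within PFL alone 19 members were lower in 542 by rank, beside 6.53% of all regions. The rank scale sets each rank against the number of usable regions in its library and was not centred. That number was 87891 and 78945 in 542 PFL and 105841 and 103163 in wt PFL. By rank the median of all regions within PFL was −0.15, and the part of region number in these counts was not tested. No simulation was made for the contrast of genotypes.

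How stable the pattern itself was could be seen by choosing regions in wt alone and looking for them in 542. In wt 681 regions were kept in both PFL and both FB libraries and in neither DFL library, and 131 of these (19.2%, 95% exact binomial interval 16.3 to 22.4) had the same pattern in 542, beside 0.593% of all merged regions. In the other direction 131 of 667 regions (19.6%) were found again. Of the 681 regions 385 were missing from at least 1 PFL list of 542, 146 from at least 1 FB list, and 254 were kept in at least 1 DFL list of 542. For regions of DFL and FB without PFL, chosen in wt in the same way, 442 of 1109 (39.9%) were found again, and for those of DFL and PFL without FB 5407 of 8969 (60.3%).

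Position was the first property that the choice did not use. The mean summit of 207 members (51.6%) was intergenic, of 155 (38.7%) intronic, of 8 (2.00%) in a UTR or noncoding exon and of 3 (0.748%) in a coding exon. A coding start lay within 1000 bp of 28 members (6.98%, 95% exact binomial interval 4.69 to 9.93), beside 2.12% of regions in PFL only, 2.24% in FB only, 3.29% in DFL and FB, and 12.8% of all merged regions. With lists of 20000 regions the share was 27.0% of 89 regions. The median distance to a coding start was 44409 bp for members, 67439 bp for PFL only, 79868 bp for FB only and 43234 bp for all merged regions, and 27 members lay more than 500 kb away. Members had a median width of 895 bp and a GC content of 48.3% around the summit, beside 660 bp and 47.0% for all merged regions. Summits of a PFL and an FB library at the same member were a median of 45 bp apart, and those of 2 libraries of one tissue 22 bp. For regions kept in all 3 tissues away from promoters these distances were 15 and 11 bp.

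The 28 promoter members, listed here after their values were seen, belong to genes of many kinds. Higher in FB were those of Zfp219 (difference −0.81 ± 0.17, limma adjusted p = 0.00422), Scml4 (−0.71 ± 0.14, limma adjusted p = 0.00241), Chd7, a chromatin remodeller (−0.68 ± 0.21, limma adjusted p = 0.0308), Acsl6, an acyl-CoA synthetase of brain (−0.44 ± 0.15, limma adjusted p = 0.0392), and Camk2b, a calmodulin kinase of neurons (−0.42 ± 0.14, limma adjusted p = 0.0322). Higher in PFL were those of Fgd4 (0.53 ± 0.16, limma adjusted p = 0.0218), Cdk2ap1 (0.43 ± 0.10, limma adjusted p = 0.00584) and Pou2f3 (0.37 ± 0.13, limma adjusted p = 0.0492). Over all regions tested 12.2% were higher in FB and 20.0% in PFL. These promoter calls are given on centred log2 fold only, where the median of all regions was 0.06 against −0.17 without centring. Before centring the mean fold at Pou2f3 was 5.79 in PFL and 5.30 in FB. The other 20 were not called. Among these were Gabrb1 and Grik3, which encode receptor subunits for GABA and glutamate, with mean folds of 4.21 and 5.99 in PFL and of 3.94 and 4.77 in FB. Also among them was Gdnf, a growth factor for nerve and kidney, at 3.32 in PFL and 3.79 in FB.

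Sequence was the next such property, and was read in 300 bp on the summit of the 373 members and 97976 merged regions away from promoters, on both strands. TGACAG was found in 133 members (35.7%), beside 26.9% of regions in PFL only, 29.95% in FB only, 21.8% in DFL and FB, 14.4% in DFL only and 23.0% of all. The E-box CAGCTG was found in 149 members (39.9%), beside 37.2%, 25.7%, 22.3%, 18.4% and 26.3% in the same order. CAGATG, another E-box, was found in 146 members (39.1%), beside 38.1% in PFL only, 28.6% in FB only and 29.7% of all. Regions in DFL and PFL without FB held CAGATG in 36.3%, CAGCTG in 29.15% and TGACAG in 19.7%. For each of the 3 motifs the members' share was above that of the other patterns named here. For both E-boxes PFL only came next, followed by DFL and PFL, so that a high share of CAGATG was not limited to regions weak in DFL. At 1000 bp to either side of the summit the shares in members were 19.6% for TGACAG, 11.1% for CAGCTG and 21.9% for CAGATG, near those of all regions there (19.08%, 12.1% and 21.46%). Shares describe these sets of regions and no test was made of them, nor of which proteins bind there.

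Some of this overlap is a single longer word. TGACAGCTG, which contains both TGACAG and CAGCTG, was present in 24 of the 373 members (6.43%), beside 2.59% in PFL only, 1.60% in FB only, 0.79% in DFL and FB, and 1.29% of all, and it was singled out after its values were seen. Of the 24 sites 13 lay within 50 bp of the summit. Outside this word TGACAG remained in 32.4% of members against 22.1% of all regions, and CAGCTG in 36.7% against 25.4%. Promoter members are not in these counts, but the region at Plpp7 also holds the word. Members with it include those near Hdgfl1, Dclk1, Zfp516 and Sox11. Their median difference between PFL and FB was 0.02 (log2, n = 24) and that of other members away from promoters −0.09 (n = 349).

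**Figure D4:**
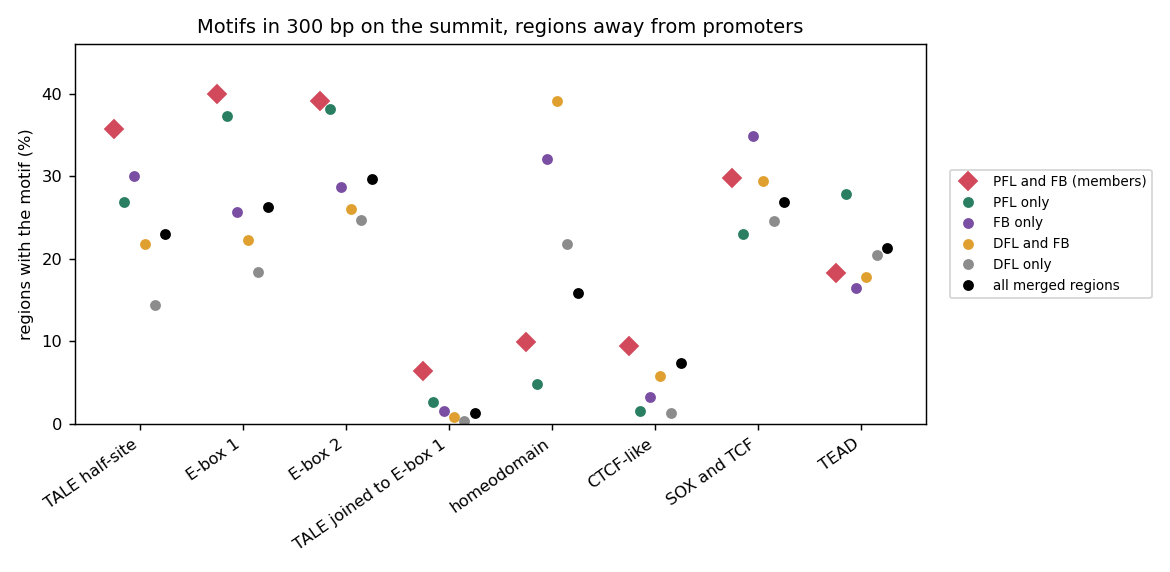
Share of regions away from promoters with each motif in 300 bp on the summit, for members (diamonds) and other patterns of tissues (circles). E-box 1 is CAGCTG and E-box 2 is CAGATG; members are at 35.7% for the TALE half-site and 6.43% for the joined word, and at 9.92% for the homeodomain motif, which regions in FB only hold in 32.1%.

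Shares of these motifs were lower the more DFL lists held a region. Among regions away from promoters and kept in at least 3 PFL and 3 FB libraries, TGACAG was present in 35.7% when no DFL library kept the region, in 30.2%, 23.7% and 21.3% when 1, 2 or 3 did, and in 18.8% when all 4 did. CAGCTG went from 39.9% to 31.1%, 28.3%, 24.4% and 24.1%, and TGACAGCTG from 6.43% to 1.65%, 1.29%, 0.967% and 0.736%. The first value of each series is that of the members. Regions kept in all 4 DFL libraries were also stronger, with a median fold of 9.94 in PFL against 5.36 for members, and strength and motif content were not separated here. Within members, a call in no DFL library was made at 22.1% of the 149 with CAGCTG and at 11.2% of the 224 without, and at 16.5% of the 133 with TGACAG and 15.0% of the 240 without.

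The motifs were also placed around the summit. In bins of 100 bp, CAGCTG occurred 31.6 times per 100 members at the summit and 5.90 to 7.77 times at distances of 300 to 500 bp. TGACAG occurred 18.8 times at the summit and 4.29 to 9.65 times at those distances, and CAGATG 19.3 times at the summit and 6.43 to 11.0 times.

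**Figure D5:**
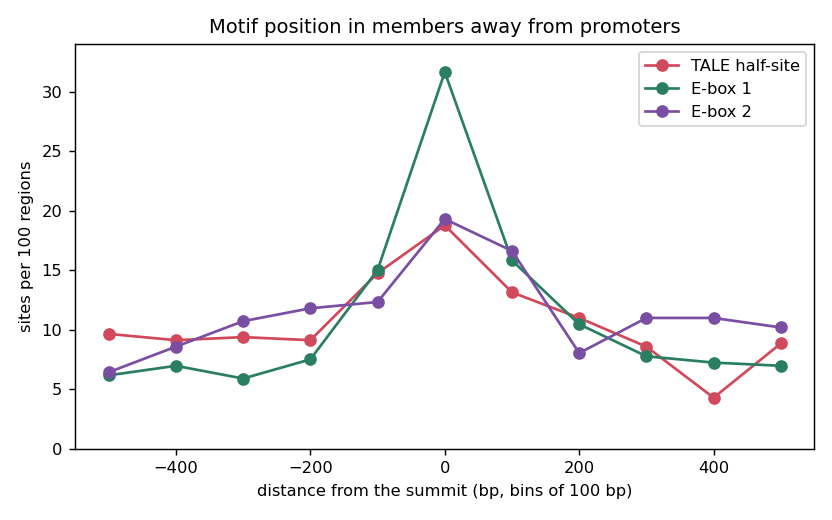
Sites per 100 members away from promoters (y axis) by distance from the summit in bins of 100 bp (x axis), with TGACAG as the TALE half-site, CAGCTG as E-box 1 and CAGATG as E-box 2. All 3 lines are highest at the summit, at 18.8, 31.6 and 19.3 sites per 100 members.

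Shares of other motifs also differed between the patterns of tissues. TAATTA, the core of many homeodomain sites, was found in 9.92% of members, 4.78% of PFL only, 32.1% of FB only and 15.9% of all. It was in 39.05% of regions in DFL and FB and in 21.8% of DFL only. ATGCAAAT, the octamer of POU proteins, was in 3.49% of members and 9.84% of FB only. GGAATG, a site of TEAD proteins, was in 18.2% of members and 27.9% of PFL only, and TGTGGTT, a RUNX site, in 6.17% and 11.3%. Regions in DFL and PFL without FB held GGAATG in 27.2% and TGTGGTT in 9.16%. ACAAAG, shared by SOX and TCF proteins, was in 29.8% of members, 22.9% of PFL only and 34.8% of FB only. CAATAAA, a site of HOX13 proteins, was in 5.36% of members and 8.04% of all. A word of the CTCF site was in 9.38% of members, 1.51% of PFL only, 3.21% of FB only and 7.35% of all, and in 24.2% of regions kept in all 3 tissues. Of the 24 motifs searched beside the joined word, the others were in 0.0% to 14.5% of members.

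Members were then assigned to the nearest coding start, which does not show that they act on that gene. They fell to 384 genes, 1.98% of the 19418 coding genes on the chromosomes used, with 17 genes taking 2 members and none more. Among proximal limb genes, Emx2 was nearest to a member. None of 13 distal limb genes, 18 forebrain progenitor genes, 19 neuron genes, 39 Hox genes or 22 Notch pathway genes was, and no member lay in the HoxD interval from Lnpk to Mtx2 or in the HoxA interval from Skap2 to Hibadh. At a share of 1.98% of all coding genes, lists this short can hold no such gene, so these absences do not set the members apart. The region near Emx2, a homeobox gene of cortex and shoulder girdle (chromosome 19, 59541591 to 59542966), had 9.89, 8.69 and 7.33 in the 3 PFL libraries with a call and 11.3, 9.36, 8.86 and 6.15 in FB (difference 0.12 ± 0.16, limma adjusted p = 0.597).

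Among signalling genes, 4 of 53 axon guidance genes, 3 of 54 Wnt genes, 2 of 37 Bmp and Tgf-beta genes, 2 of 26 Fgf genes and 2 of 18 retinoic acid genes were nearest to a member. Over all 19418 coding genes it was 384. Regions in PFL only were nearest to 24 of these axon guidance genes and to 2492 of all coding genes. Those in FB only were nearest to 41 and 4668. Acvr2a, an activin receptor, had a member 275122 bp away (chromosome 2, 48538473 to 48539569) with 5.47 and 5.73 in wt PFL, 4.75 and 4.94 in 542 PFL, 12.51 and 12.3 in wt FB and 12.2 and 13.6 in 542 FB (−1.04 ± 0.12, limma adjusted p = 8.21e-05). Together with the region near Inhba (−1.05 ± 0.12, limma adjusted p = 8.62e-05), both members of this list were higher in FB. Near Spry1, an Fgf antagonist (chromosome 3, 37666479 to 37667348), values were 4.52 to 6.51 in PFL and 10.6 to 11.5 in FB (−0.79 ± 0.13, limma adjusted p = 0.000989), while near Dusp6, an ERK phosphatase, they overlapped, at 3.82 to 6.11 and 4.58 to 5.79 (0.14 ± 0.14, limma adjusted p = 0.472). DFL values, 3.81 to 4.73 near Spry1 and 3.67 to 4.54 near Dusp6, overlapped those of PFL at both.

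An intron of Rarb, a retinoic acid receptor gene (chromosome 14, 16517498 to 16518827), had 5.47 and 4.96 in wt PFL, 6.10 and 4.43 in 542 PFL, 10.2 and 9.71 in wt FB and 8.89 and 10.2 in 542 FB (−0.67 ± 0.13, limma adjusted p = 0.00293). It had no DFL call in any library, the further one included. Near Aldh1a3, an enzyme of retinoic acid synthesis, the difference was −0.18 ± 0.17 (limma adjusted p = 0.432). In Sema3e, a guidance ligand (chromosome 5, 14038897 to 14039875), values were 5.79 to 6.93 in PFL and 10.3 to 13.6 in FB (−0.68 ± 0.13, limma adjusted p = 0.0019). Near Efna5, an ephrin ligand (chromosome 17, 62567640 to 62569185), PFL was higher, with 6.76 and 6.93 in wt PFL, 10.3 and 7.59 in 542 PFL, 7.01 and 8.23 in wt FB and 4.18 and 4.77 in 542 FB (0.65 ± 0.14, limma adjusted p = 0.00455). Before centring, the 542 PFL values were above the 542 FB values and the wt PFL values below the wt FB values, and this difference between genotypes was not called (limma adjusted p = 0.419). The regions near Fzd1 and Fzd7, Wnt receptors, were not called, at −0.17 ± 0.16 and −0.09 ± 0.14 (limma adjusted p = 0.432 and 0.645), but that near Fzd1 was called higher in FB by depth-scaled summit tags (−0.66, limma adjusted p = 0.0103).

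Among transcription factor lists, 3 of 14 orphan nuclear receptor and Zic genes, 2 of 17 LIM homeobox and cofactor genes, 1 of 24 bHLH genes and 1 of 14 Sox genes were nearest to a member. None of 12 NFI, Tshz, Zfhx and Ebf genes, 8 POU genes or 6 Iroquois genes was. The share over all coding genes was 1.98%, at which lists this short can hold no such gene. Near Zic4, a zinc finger gene of the dorsal brain (chromosome 9, 91355376 to 91356225), values were 4.99 and 5.45 in wt PFL, 4.96 and 2.60 in 542 PFL, 8.02 and 7.96 in wt FB and 6.87 and 8.01 in 542 FB (−0.60 ± 0.17, limma adjusted p = 0.022). DFL values there were 2.98 to 3.97 and overlapped those of PFL. Without 542 PFL replicate 2, the low library, the difference was −0.39 (limma adjusted p = 0.0607), and the call was also lost without wt PFL replicate 1, either wt FB library or 542 FB replicate 2 (limma adjusted p from 0.0532 to 0.0702). Near Dach1, a corepressor gene of eye and limb, it was −0.49 ± 0.13 (limma adjusted p = 0.0143), a call lost without 542 FB replicate 2 or wt PFL replicate 1 (limma adjusted p = 0.052 and 0.0526). Near Nr2f2, Lhx8, Lmo4 and Sox11 no difference was called on centred log2 fold, with estimates of 0.11, −0.38, −0.03 and 0.01. The region near Lhx8 was called higher in FB without centring (limma adjusted p = 0.00908), by depth-scaled summit tags (limma adjusted p = 2.18e-05), also with their library median set to 0 (limma adjusted p = 0.00148), by rank (limma adjusted p = 0.00838) and without 542 PFL replicate 2 (limma adjusted p = 0.0362). The region in Tcf12, an E-protein gene and thus a partner of other bHLH proteins, was called higher in PFL (0.44 ± 0.14, limma adjusted p = 0.0324) not called without centring (limma adjusted p = 0.28), and reversed by depth-scaled summit tags (−0.27) and by rank (−0.06).

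Genes of other cell types that both tissues could hold were also represented. Of 21 endothelial genes Cdh5 and Ets1, and of 15 muscle genes Pax3 and Myf5, were nearest to a member. Near Cdh5, the endothelial cadherin (chromosome 8, 104061789 to 104062784), the fold was 5.36 to 7.58 in PFL and 7.81 to 11.2 in FB (−0.29 ± 0.14, limma adjusted p = 0.132). It was called higher in FB without centring (limma adjusted p = 0.0138), by depth-scaled summit tags (limma adjusted p = 3.77e-05), also with their library median set to 0 (−0.62, limma adjusted p = 0.0028), and by rank (limma adjusted p = 0.0239). In Ets1 the fold was 3.33 to 4.32 in 3 PFL libraries and 5.29 to 6.26 in FB (−0.49 ± 0.16, limma adjusted p = 0.0325, with the sign reversed by depth-scaled summit tags and no call by rank, limma adjusted p = 0.299). In Pax3, a gene of muscle precursors and of the dorsal neural tube, it was 2.95 to 4.38 in DFL, 3.71 to 6.92 in PFL and 4.44 to 7.23 in FB (PFL minus FB 0.02 ± 0.21, limma adjusted p = 0.963), while depth-scaled summit tags called it higher in FB (−0.524, limma adjusted p = 0.0337). Near Myf5, the myogenic factor, it was 4.47 to 7.14 in PFL and 2.92 to 4.73 in FB (0.61 ± 0.18, limma adjusted p = 0.0246), a call lost without centring (limma adjusted p = 0.129) and without wt PFL replicate 1, either 542 PFL library, either wt FB library or 542 FB replicate 2 (limma adjusted p from 0.0501 to 0.108). Kept regions nearest to endothelial genes numbered 96 to 104 in PFL, 95 to 100 in DFL and 65 to 71 in FB, and those nearest to muscle genes 81 to 87, 70 to 84 and 78 to 80. The start of Cdh5, of Myf5, of the Schwann cell gene Sox10 and of the macrophage gene Spi1 was in no kept region of any library. None of 14 blood and macrophage, 14 pericyte, 13 cartilage, 16 tendon, 15 ectoderm or 8 meninges genes was nearest to a member. Lists this short can hold no such gene at the share of 1.98% of all coding genes. The part of cell composition in these values was not tested.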

How the data were processed

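ATAC-seq libraries were described by the peak calls of each library. Per the paper's methods and the labels, the authors trimmed reads with Cutadapt, mapped them with bowtie2 and removed duplicates with picard. Alignments were converted to intervals with bedtools. Peaks were called per library with MACS2 without a control, in a setting that centres tags on the Tn5 insertion. The deposited fold is a ratio of tags under the summit plus 1 to local background plus 1. Each summit also has a −log10 p-value and q-value, deposited as the caller gave them, and a deposited score, which is 10 times −log10 q and was not used. Values were not scaled across libraries by the authors.

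Summits that shared both ends were 1 region, ranked by −log10 q and then fold. Presence needed 1 bp of overlap, and a region's value was its strongest summit of any rank. Tags at summits were recovered within a tolerance of 0.001 from fold and p-value for 99.4% to 100.0% of summits, and depth from the most frequent background. Log2 fold was centred on the library median of regions with all 8 values and fitted with limma 3.58.1 (R 4.3.3, trended variance) with 4 groups, without a replicate block. Replicates were separate embryo pools. The fit was tested on simulated data. Annotation was GENCODE M21 and sequence was GRCm38. Scripts ran in Python 3.11.15 with scipy 1.17.1, pandas 2.3.3 and numpy 2.4.6, and figures were drawn with matplotlib 3.10.9.

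Members, gene lists and motifs were chosen with earlier results of these data known. Named were the 10 members of highest mean fold, the 5 largest differences per direction, up to 2 members per gene list, and those at the edge of the rule. Promoter members and TGACAGCTG were added after values were seen. Alternatives were list lengths, overlap rules, scales, and each library left out. One member that this rule names is not reported here.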

Additional observations from a re-analysis of the deposited data

Results flagged for a closer look

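In 83 sets of 4 libraries of one tissue (counts and median folds of members, and folds of named members), 9 had 1 library apart from the other 3 by a gap above Dixon's 95% critical value. Chance gives about 1 such set in 20. In PFL, 542 replicate 2 was low near Tbx19, at a fold of 6.32 against 9.14 to 9.20, and near Zic4, at 2.60 against 4.96 to 5.45. Replicate 2 of wt PFL was high near Dach1, at 4.78 against 4.35 to 4.43, and replicate 1 of wt PFL near Lmo4, at 5.66 against 4.27 to 4.39. In FB, wt replicate 1 was high at Cacna2d3, at 15.8 against 13.5 to 13.8, and near Spry1, at 11.5 against 10.6 to 10.8. There, 542 replicate 2 was low near Myf5, at 2.92 against 4.55 to 4.73, 542 replicate 1 near Zic4, at 6.87 against 7.96 to 8.02, and wt replicate 2 near Nr2f2, at 5.39 against 6.07 to 6.19. The causes were not tested.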

How the results depend on the processing

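The number of members followed the length of the lists, with 89 regions for lists of 20000, 770 for lists of 80000 and 793 for all deposited regions. It was 131 when all 4 libraries of both tissues had to keep a region, and 60 when no DFL call of any strength was allowed. Leaving out 1 library gave 213 to 563, and the lowest counts, 223, 248, 213 and 219, came without 542 PFL replicate 1, 542 PFL replicate 2, wt PFL replicate 1 and wt PFL replicate 2, since all 3 PFL libraries left were then required.

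Members higher in PFL numbered 27 by quantile normalization, 12 without centring, 28 by depth-scaled summit tags and 19 by rank. Those higher in FB were 166 without centring and 161 by depth-scaled summit tags. With regions in 4 of 4 libraries, where 131 members were tested, 55 were called, 14 higher in PFL and 41 in FB. Leaving out 1 library gave 109 to 150 called members, 27 to 47 higher in PFL and 79 to 103 in FB. With the replicate block 151 members were called (46 and 105) and 0 differed between genotypes, while deviations of libraries with the same replicate number correlated at −0.0394 to 0.02, which does not pair them. Between genotypes 4 members were called by depth-scaled summit tags, 3 by the same with the library median set to 0, which was chosen after seeing the data, and 2 by rank, while each library left out gave 0 to 0.

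By depth-scaled summit tags the difference between PFL and FB reversed to −0.264 in Brinp1, −1.70 near Usp25, 0.155 in Ets1, −0.524 in Pax3 and −0.267 in Tcf12. With the library median set to 0 it was −0.032, −1.52, 0.34 and −0.035 in Brinp1, Usp25, Ets1 and Tcf12. By rank it was −0.212 near Usp25 and −0.055 in Tcf12. Without change of direction, depth-scaled summit tags moved the called difference by over 1.5 times to −2.56 in Eipr1, −2.02 near Inhba, −2.03 in Cacna2d3, −1.08 near Wac, −2.41 near Zic4, −1.38 near Dach1, −3.03 near Acvr2a, −1.01 in Rarb and −1.34 in Sema3e. The pattern chosen in wt was found again for 14.1% of regions in lists of 20000 and for 23.5% in lists of 80000. The further wt DFL library held 0.25% of members among its 20000 strongest regions and 72.6% at any strength. Members without a DFL call were 227 when a call had to cover at least 50% of the region, and 65 to 88 without 1 library. The promoter share was 27.0% with lists of 20000. The cause of these changes was not tested beyond the number of regions or libraries that a setting admits. Peak calls limit the comparison, since a region without a call has no value.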
